A study of Mus musculus with 6 samples.

Results

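Carboxylesterases are serine hydrolases that cleave ester, thioester and amide bonds in drugs, retinyl esters and acylglycerols. Most of them are held in the lumen of the endoplasmic reticulum by a short retrieval signal at the end of the protein, and some are secreted into plasma. The liver is a main site of their expression, where Ces1 enzymes release fatty acids from stored triglyceride for the assembly of very low density lipoprotein and Ces2 enzymes prefer esters with a small acyl and a large alcohol group. The 10 genes described here, Ces1c, Ces1d, Ces1e, Ces1f, Ces1g, Ces2a, Ces2c, Ces2e, Ces3a and Ces3b, were taken by symbol from the 17624 genes of the liver RNA-seq table. Each symbol had 1 row, no gene was listed at 0 in any liver, and all 10 passed the filter on low values. One further gene of the family, Ces2g, was also read, and other family members were not analysed here.

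The study compared livers of iAsF1-F with those of conF1-F, in 3 livers per group. All 6 came from female C57BL/6 mice of the F1 generation that were themselves not given arsenic. The fathers of iAsF1-F had drunk water with inorganic arsenic (iAs, as sodium arsenite) before breeding with unexposed females, and the fathers of conF1-F had not. The labels call the mice fed at harvest, the legend of the study's heat map gives refeeding, and the age at harvest is not given in the sources used here. Treatment of the fathers is the only labelled difference between the groups, so whatever else differed between sires or litters cannot be told apart from it. The values are RPKM, which divides the reads of a gene by transcript length and by the depth of its library, and carry no count of reads with them.

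From the steps between the smallest values, the depth was estimated at 11100000 to 16500000 reads in iAsF1-F and 12600000 to 14900000 reads in conF1-F. This estimate is rough, since 51.5% to 54.9% of small values fell within 0.1 of a whole read, against 20% for evenly spread values. Mitochondrially encoded genes took 15.3% to 17.01% of all RPKM in iAsF1-F livers and 14.2% to 15.2% in conF1-F. The liver label was checked with 8 hepatocyte markers, whose summed level was 39952 to 44982 RPKM in iAsF1-F livers and 37285 to 43759 RPKM in conF1-F livers. Of these 8, 7 had a log2 fold change of iAsF1-F over conF1-F above 0 and 1 below 0 (median 0.14). Without overlap of the groups 2 were higher, against 5.83% of all genes tested, and 0 lower, against 5.71%. The 5 erythroid markers summed to 237 to 367 RPKM in iAsF1-F livers, and to 372 to 647 RPKM in conF1-F livers. Of the 4 erythroid markers tested, 1 had a log2 fold change above 0 and 3 below 0 (median −0.74). Without overlap of the groups 2 were lower, against 5.71% of all genes tested, and 0 higher, against 5.83%. The 7 markers of Kupffer cells and macrophages summed to 51.2 to 191 RPKM in iAsF1-F livers and 92.1 to 246 RPKM in conF1-F livers. Of these 7, 1 had a log2 fold change above 0 and 6 below 0 (median −0.23), all with overlap of the groups. Other cell types were also looked for, with iAsF1-F given first in each. The sums were 3.19 to 17.3 against 9.76 to 17.9 RPKM for 5 sinusoidal endothelial markers. For 7 stellate cell and fibroblast markers they were 38.9 to 44.9 against 30.0 to 52.6 RPKM. Most of that was Dcn alone, at 34.6 to 39.1 against 29.7 to 46.1 RPKM. For 2 cholangiocyte markers the sums were 3.58 to 5.07 against 5.05 to 18.8 RPKM. Adipocytes also express Ces1d and Ces1f, and the only adipocyte marker analysed here, Fabp4, was at 0.0972 to 2.35 RPKM in iAsF1-F livers and 0.0401 to 1.48 RPKM in conF1-F livers. Intestinal epithelium is rich in Ces2 enzymes, and the only intestinal marker analysed here, Fabp2, was at 13.0 to 37.1 RPKM in iAsF1-F livers and 34.4 to 48.0 RPKM in conF1-F livers. The lymphocyte marker Ptprc lay at 0.114 RPKM or less in every liver. Whether any of these values bears on the carboxylesterase levels was not tested. Some single markers were listed at 0 in some livers only. Vsig4 of Kupffer cells had 0, 24.5 and 0 RPKM in iAsF1-F livers, against 29.6, 20.8 and 16.8 RPKM in conF1-F livers. Endothelial Clec4g was at 0 in iAsF1-F replicate 1, and stellate cell Lrat in conF1-F replicates 2 and 3. Of all genes tested, 19.6% were listed at 0 in 1 to 5 livers, and why was not tested. In whole liver, fewer cells of a type, less RNA per cell and such zeros cannot be told apart.

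All 10 genes lie on chromosome 8 in GRCm38, in 2 clusters. The 5 Ces1 genes occupy 238 kb, from 93099015 to 93337308, all on the minus strand, in the order Ces1c, Ces1d, Ces1e, Ces1f and Ces1g. Coordinates given with the single genes are on this chromosome and build. The Ces2 and Ces3 genes occupy 360 kb, from 104734003 to 105093929, all on the plus strand, and the stretch between the clusters measures 11397 kb. Within Ces1, coding sequences of pairs were identical at 73.6% to 81.5% of aligned positions, and within Ces2 at 82.6% to 83.7%. Ces3a and Ces3b were identical at 95.3%, whereas the 31 pairs across subfamilies reached 58.8% to 62.0%.

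Such likeness bears on how short reads can be assigned to a gene, so the most alike stretches are shown. They come from the coding sequences of GENCODE transcripts of GRCm38, in the direction of the gene and counted from the first base of the start codon. Each shows 60 bases, and capitals mark bases that differ from the first gene of the set. In Ces1 the stretch starts at coding base 153 in Ces1e and at coding base 150 in the other 4 genes.
Ces1c: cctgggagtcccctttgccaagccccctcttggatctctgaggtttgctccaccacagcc
Ces1e: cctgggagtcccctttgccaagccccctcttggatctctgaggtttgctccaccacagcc
Ces1d: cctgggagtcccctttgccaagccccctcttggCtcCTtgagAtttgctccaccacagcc
Ces1f: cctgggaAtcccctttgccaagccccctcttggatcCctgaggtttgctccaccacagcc
Ces1g: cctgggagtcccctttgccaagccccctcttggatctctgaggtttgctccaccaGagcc

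Ces1e had 0 differences from Ces1c over these bases, Ces1g had 1, Ces1f had 2 and Ces1d had 4. The identical run of Ces1c and Ces1e extended to 95 bases. In Ces2 the most alike stretch starts at coding base 1581 of Ces2e, 1578 of Ces2a and 1587 of Ces2c.
Ces2e: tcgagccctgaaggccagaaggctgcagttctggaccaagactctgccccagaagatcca
Ces2a: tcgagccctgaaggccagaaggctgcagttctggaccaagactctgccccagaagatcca
Ces2c: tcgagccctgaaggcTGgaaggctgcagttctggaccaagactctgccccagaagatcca

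Ces2a and Ces2e were identical over these bases, in a run of 73, and Ces2c differed at 2 adjacent bases. In Ces3 the stretch starts at coding base 581 of both genes and is the same in both, within an identical run of 194 bases.
Ces3a and Ces3b: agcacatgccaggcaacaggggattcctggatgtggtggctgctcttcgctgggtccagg

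Of all 50-base windows of a coding sequence, 33.8% of those of Ces3a or Ces3b also occurred in another of the 10 genes, against 0.486% to 2.87% for the other 8. Among these 10 coding sequences, the split of reads between Ces3a and Ces3b is therefore the least certain. Untranslated bases and other genes of the family were not compared. How the authors treated reads that match several genes is not given in the sources used here.

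Carboxylesterase mRNA was abundant in every liver. The 10 genes summed to 1187, 1131 and 1111 RPKM in iAsF1-F livers, and to 1121, 1103 and 1058 RPKM in conF1-F livers. The highest sum was in iAsF1-F replicate 1 and the lowest in conF1-F replicate 3, and the groups overlapped. The means were 1143 ± 39.4 RPKM in iAsF1-F livers and 1094 ± 32.5 RPKM in conF1-F livers (SD, n = 3 each), a ratio of 1.05. Ces1 genes summed to 1014 ± 48.9 RPKM in iAsF1-F livers and 977 ± 32.4 RPKM in conF1-F livers, a ratio of 1.04 (SD, n = 3 each). Ces3 genes summed to 72.9 ± 10.7 RPKM in iAsF1-F livers and 73.5 ± 12.2 RPKM in conF1-F livers, a ratio of 0.99 (SD, n = 3 each). The 3 Ces2 genes summed to 57.2, 53.6 and 56.3 RPKM in iAsF1-F livers, against 49.3, 48.2 and 33.1 RPKM in conF1-F livers. Every iAsF1-F sum of Ces2 lay above every conF1-F sum, with a ratio of means of 1.28, or 1.14 without conF1-F replicate 3. The single means were 27.3 against 18.1 RPKM for Ces2e, 27.4 against 24.3 for Ces2a and 0.977 against 1.16 for Ces2c, iAsF1-F first. Among these genes only Ces2e was without overlap of the groups. Of all genes tested, 5.83% were higher in iAsF1-F without overlap.

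**Figure D1:**
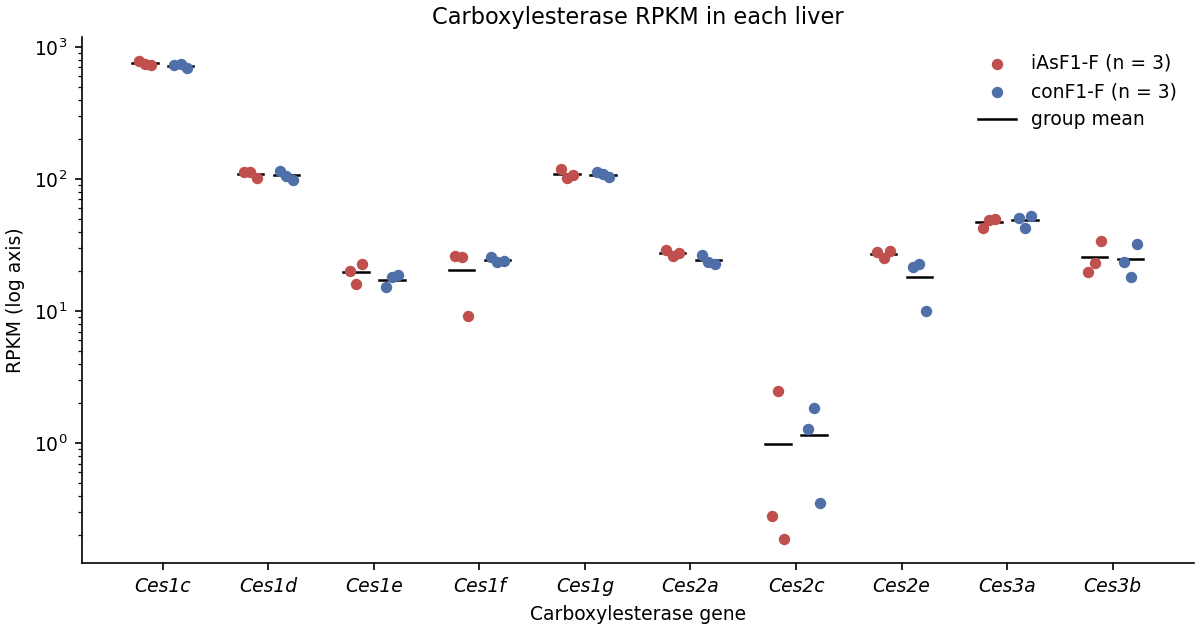
Level of each of the 10 carboxylesterases in each liver, as deposited RPKM on a log axis. Points are livers, red for iAsF1-F and blue for conF1-F, and black lines are group means (n = 3 each). Ces1c lies above all others between 695 and 788 RPKM, Ces2c lies lowest and is the most scattered, and only for Ces2e do the groups not overlap.

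None of the 10 genes differed between the groups past the threshold (0 of 10 at an adjusted p under 0.05, limma), where 0.248% of the 6448 genes tested did so (0.124% higher and 0.124% lower in iAsF1-F). At an unadjusted p under 0.05 the count was also 0 of 10, against 5.12% of all genes tested. Fitted alone, the 5187 genes never listed at 0 in any liver, which include all 10, held 5 called genes. The fold changes were above 0 for 7 of the 10 genes, against 49.7% of all genes tested, and below 0 for 3, with a median log2 fold change of 0.05 for the 10 genes and −0.0015 for all genes tested. Fold changes give iAsF1-F over conF1-F, on the scale of log2(RPKM + 1), which understates changes at low RPKM. With 3 against 3 livers, the two-sided exact permutation test cannot give a p below 0.1.

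**Figure D2:**
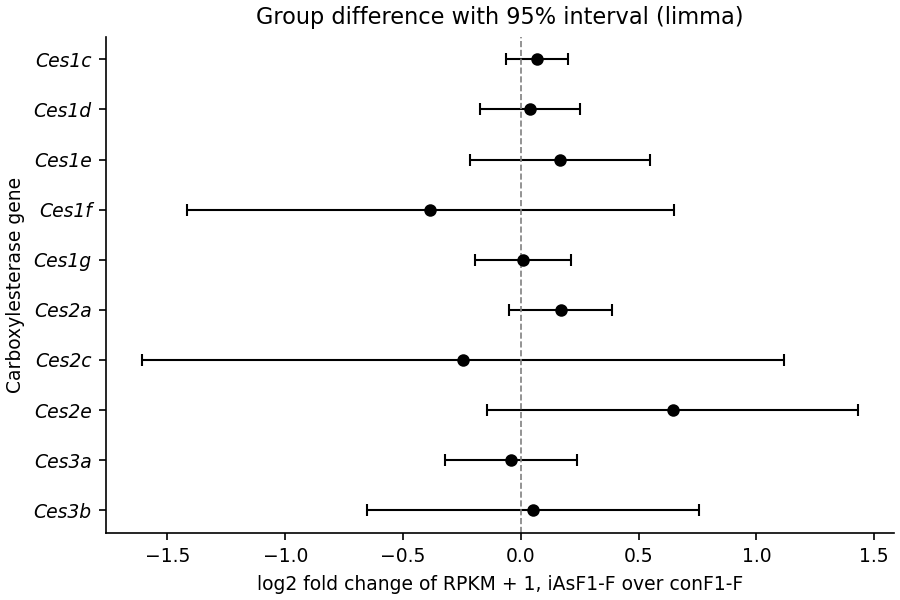
Log2 fold change of RPKM + 1, iAsF1-F over conF1-F, for each carboxylesterase with its 95% interval from limma (3 livers per group). The dashed line marks no difference, and every interval crosses it. Those of Ces1c, Ces1d, Ces1g and Ces2a are narrow, and those of Ces1f, Ces2c and Ces2e reach beyond 1 in size.

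Ces1c (ENSMUSG00000057400, bases 93099015 to 93131283), the plasma carboxylesterase that hepatocytes secrete, was the most abundant member. It stood at 788, 749 and 730 RPKM in iAsF1-F livers, against 727, 738 and 695 RPKM in conF1-F livers. The lowest iAsF1-F liver lay between the conF1-F livers, so the groups overlapped. Ces1c ranked 60 among all 17624 genes by mean RPKM and made up 66.1% ± 0.365 of the summed RPKM of the 10 genes in iAsF1-F and 65.9% ± 1.00 in conF1-F (SD, n = 3 each). Its log2 fold change was 0.07 (SE 0.05, 95% interval −0.06 to 0.20), with an adjusted p = 0.877 from limma and an exact permutation p = 0.2. This interval was the narrowest of the family.

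Ces1d (ENSMUSG00000056973, bases 93166068 to 93197838), also called triacylglycerol hydrolase, mobilises stored triglyceride for lipoprotein secretion. Its level was 114, 113 and 102 RPKM in iAsF1-F livers, and 116, 106 and 98.3 RPKM in conF1-F livers. Both groups spanned nearly the same range, and the highest and the lowest liver were both conF1-F. The log2 fold change was 0.04 (SE 0.08, 95% interval −0.17 to 0.25, adjusted p = 0.952 by limma), and it turned to −0.02 without conF1-F replicate 3.

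Ces1g (ENSMUSG00000057074, bases 93302369 to 93337308), whose loss in mice is known to raise hepatic lipid synthesis, lay close to Ces1d in deposited RPKM, though not on the other scale described with the order of levels. It had 119, 101 and 106 RPKM in iAsF1-F livers, and 113, 108 and 103 RPKM in conF1-F livers. The highest and the lowest of the 6 livers were both iAsF1-F. The log2 fold change was 0.01 (SE 0.08, 95% interval −0.20 to 0.22, adjusted p = 0.999 by limma), and it was −0.06 without iAsF1-F replicate 1 and −0.03 without conF1-F replicate 3. Ces1g is the only member with a single transcript entry, so its reads could be estimated, at 3153 to 4193 per liver in iAsF1-F and 3104 to 4011 in conF1-F. Counting error was then 1.54% to 1.79% of the value, below the coefficients of variation between livers of 8.60% in iAsF1-F and 4.73% in conF1-F.

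Ces1e (ENSMUSG00000061959, bases 93201218 to 93229619), known as egasyn, holds β-glucuronidase in the endoplasmic reticulum. It was measured at 19.96, 16.1 and 22.8 RPKM in iAsF1-F livers, against 15.2, 18.0 and 18.7 RPKM in conF1-F livers. The 2 highest livers were iAsF1-F and the lowest was conF1-F, with overlap between the groups. The log2 fold change of Ces1e was 0.17 (SE 0.15, 95% interval −0.22 to 0.55, adjusted p = 0.877 by limma). It was 0.056 without iAsF1-F replicate 3, 0.082 without conF1-F replicate 1 and 0.29 without iAsF1-F replicate 2.

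Ces1f (ENSMUSG00000031725, bases 93256236 to 93279747), also called triacylglycerol hydrolase 2, was even in 5 livers and low in the sixth. It had 26.3, 25.5 and 9.10 RPKM in iAsF1-F livers, and 25.5, 23.4 and 24.1 RPKM in conF1-F livers. Replicate 3 of iAsF1-F stood at 35.7% of the median of the other 5 livers, which lay between 23.4 and 26.3 RPKM. The group means were 20.3 ± 9.71 RPKM in iAsF1-F livers and 24.3 ± 1.04 RPKM in conF1-F livers (SD, n = 3 each). The log2 fold change was −0.38 (SE 0.41, 95% interval −1.42 to 0.65, adjusted p = 0.877 by limma). Without iAsF1-F replicate 3 the log2 fold change was 0.09 (SE 0.07), so that 1 liver set the direction. The neighbouring Ces1e and Ces1g were at 22.8 and 106 RPKM in the same liver, the highest of the 6 livers for Ces1e and within the range of the others for Ces1g.

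**Figure D3:**
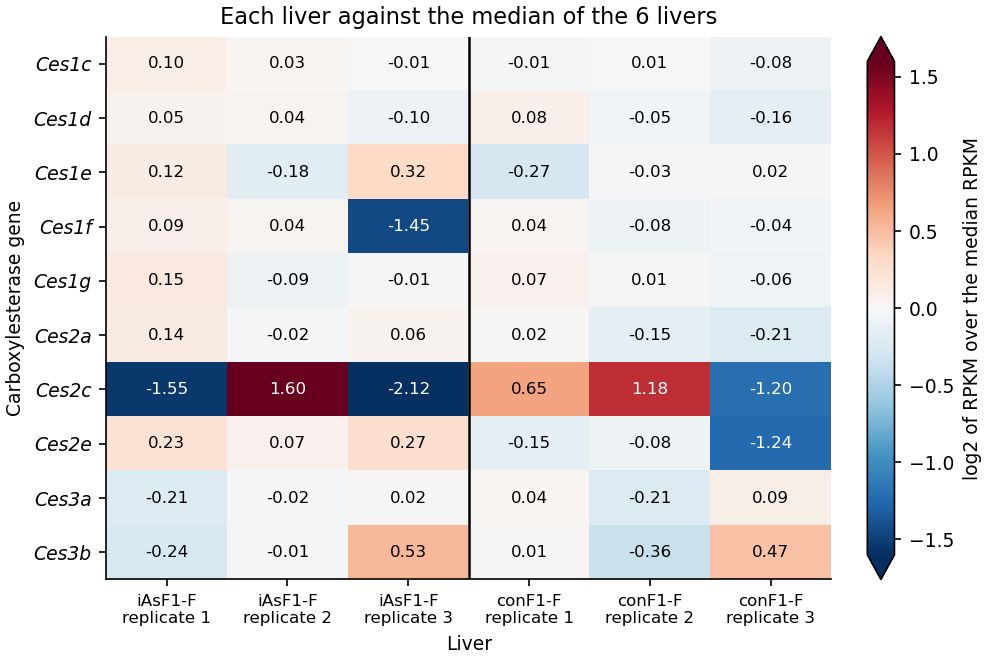
Level of each carboxylesterase in each liver as log2 of its RPKM over the median RPKM of the 6 livers, iAsF1-F left and conF1-F right of the line. Most cells are within 0.3 of 0. The exceptions are Ces1f in iAsF1-F replicate 3 (−1.45), Ces2e in conF1-F replicate 3 (−1.24), all livers of Ces2c, Ces3b in 3 livers and Ces1e in iAsF1-F replicate 3 (0.32).

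Ces2e (ENSMUSG00000031886, bases 104926260 to 104934672), a Ces2 enzyme of liver and intestine, had a higher mean in iAsF1-F than in conF1-F livers. It stood at 27.9, 25.2 and 28.7 RPKM in iAsF1-F livers, against 21.5, 22.6 and 10.1 RPKM in conF1-F livers. All 3 iAsF1-F livers were above all 3 conF1-F livers, and it was the only member whose groups did not overlap (1 of 10 higher, against 5.83% of all genes tested, and 0 of 10 lower, against 5.71%). The means were 27.3 ± 1.87 RPKM in iAsF1-F livers and 18.1 ± 6.94 RPKM in conF1-F livers (SD, n = 3 each), a ratio of 1.51. The log2 fold change was 0.64 (SE 0.31, 95% interval −0.14 to 1.43), with an adjusted p = 0.877 from limma and the smallest possible exact permutation p = 0.1. Replicate 3 of conF1-F was at 40.1% of the median of the other 5 livers. Without it the log2 fold change was 0.29 (SE 0.09, adjusted p = 0.829 by limma), and over all alternatives it lay between 0.29 and 0.84 with adjusted p = 0.819 to 0.923.

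Ces2a (ENSMUSG00000055730, bases 104734003 to 104741634), which hydrolyses acylglycerols, shared the longest identical run with Ces2e and lay at a similar level. It had 28.9, 26.0 and 27.4 RPKM in iAsF1-F livers, against 26.6, 23.7 and 22.7 RPKM in conF1-F livers. The 2 highest livers were iAsF1-F and the 2 lowest were conF1-F, while the lowest iAsF1-F liver fell below the highest conF1-F liver. Its log2 fold change was 0.17 (SE 0.09, 95% interval −0.05 to 0.39, adjusted p = 0.877 by limma, exact permutation p = 0.2). In conF1-F replicate 3, where Ces2e was at its lowest, Ces2a was also at its lowest, but by 0.21 on the log2 scale below the median of the 6 livers, against 1.24 for Ces2e.

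Ces2c (ENSMUSG00000061825, bases 104847068 to 104854483), an acylglycerol hydrolase studied mainly in mouse intestine, was by far the lowest member. It was listed at 0.279, 2.46 and 0.188 RPKM in iAsF1-F livers, and at 1.28, 1.85 and 0.354 RPKM in conF1-F livers. The highest and the lowest liver, 13.1-fold apart, were both iAsF1-F, and each group held both high and low livers. These values rest on few reads, at most an estimated 12.1 to 152 per liver, and the mean of 1.07 RPKM just passed the filter of 1 RPKM. The log2 fold change was −0.25 (SE 0.54, 95% interval −1.61 to 1.12, adjusted p = 0.958 by limma), and it was 0.03 without iAsF1-F replicate 3. With a pseudocount of 0.1 RPKM it was −0.71 (SE 1.09), and without iAsF1-F replicate 2 it was −0.74 (SE 0.39). Its interval spans large changes in both directions.

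Ces3a (ENSMUSG00000069922, bases 105048601 to 105058413) and Ces3b (ENSMUSG00000062181, bases 105083753 to 105093929) encode liver carboxylesterases of the endoplasmic reticulum with closely similar sequences. Ces3a had 42.7, 49.0 and 50.02 RPKM in iAsF1-F livers, and 50.8, 42.6 and 52.8 RPKM in conF1-F livers. Ces3b had 19.8, 23.2 and 33.9 RPKM in iAsF1-F livers, and 23.6, 18.2 and 32.4 RPKM in conF1-F livers. For both genes the 2 lowest livers were conF1-F replicate 2 and iAsF1-F replicate 1, so each group held low and high livers. The highest livers were conF1-F replicate 3 for Ces3a and iAsF1-F replicate 3 for Ces3b. The log2 fold change was −0.04 for Ces3a (SE 0.11, 95% interval −0.32 to 0.24, adjusted p = 0.974 by limma). For Ces3b it was 0.05 (SE 0.28, 95% interval −0.65 to 0.76, adjusted p = 0.999 by limma). Both turned sign when 1 liver was left out, Ces3a to 0.03 without iAsF1-F replicate 1 and Ces3b to −0.16 without iAsF1-F replicate 3. Ces2g, a further Ces2 gene outside the 10, had 7.04, 8.30 and 9.83 RPKM in iAsF1-F livers, and 6.75, 5.27 and 10.5 RPKM in conF1-F livers, and a fold change of 0.18 on the log2 scale (SE 0.26, adjusted p = 0.892 by limma).

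By mean level over the 6 livers the order was Ces1c, Ces1g, Ces1d, Ces3a, Ces2a, Ces3b, Ces2e, Ces1f, Ces1e and Ces2c. Ces1c was above all others in each liver. Ces1g and Ces1d did not differ beyond their spread, and Ces3a followed them in all 6 livers. The ranges of neighbours from Ces2a to Ces1e overlapped, and Ces2c was below Ces1e in every liver. The coefficient of variation between livers ran from 3.91% for Ces1c to 132% for Ces2c in iAsF1-F, and from 3.07% for Ces1c to 65.0% for Ces2c in conF1-F. Its median over the 10 genes was 8.52% in iAsF1-F and 9.43% in conF1-F, against 9.12% in iAsF1-F and 10.6% in conF1-F for the 1979 tested genes of at least 10 RPKM, a level that Ces2c does not reach. Replicate 3 of conF1-F was the lowest liver for 4 of the 10 genes, and iAsF1-F replicate 1 was the highest for 4.

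The order below Ces1c depended on how the deposited values had been made. By their decimals, the values of 9 of the 10 genes are means over 2 to 6 transcript entries, and Ces1g has 1. The entries of 7 genes equalled the number of transcripts in the GENCODE annotation, where the 6 of Ces1f are 1 protein-coding transcript, 4 with a retained intron and 1 subject to nonsense-mediated decay. A gene with many little-used transcripts is lowered by such a mean. When each value was multiplied by its number of entries, Ces1c made up 56.3% of the summed level, Ces1d followed at 433 RPKM and Ces3a came next at 240 RPKM. Ces1f came to 134 RPKM and Ces1g to 109 RPKM, so that Ces1f moved from place 8 to 4 and Ces1g from place 2 to 5. The comparison between the groups is within a gene, and a constant factor per gene leaves it nearly unchanged. That 0 of 10 genes passed the threshold on this scale is therefore no separate support. Whether the groups differed in the transcripts used was not tested.

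**Figure D4:**
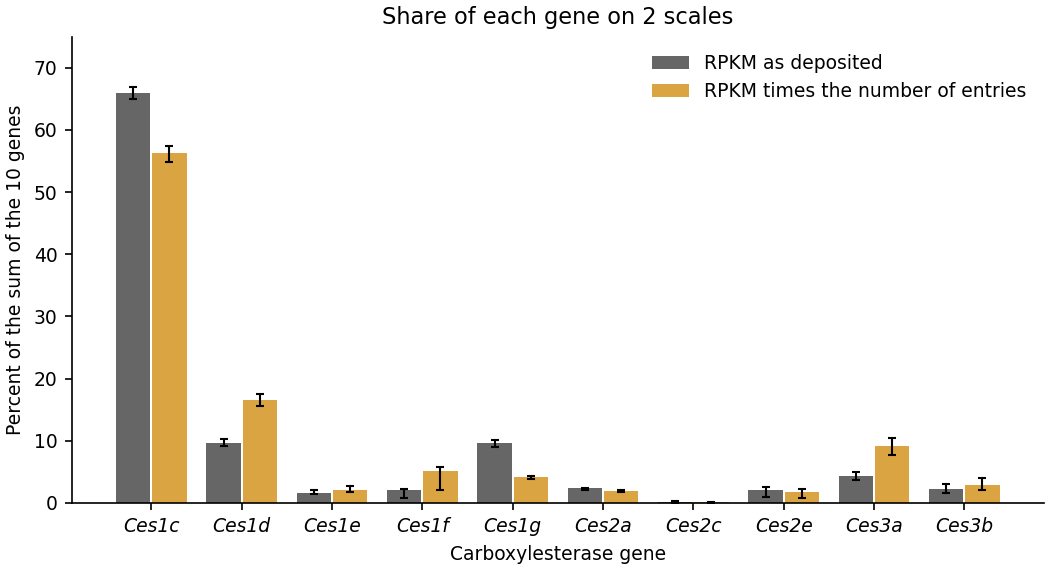
Share of each carboxylesterase in the summed level of the 10 genes, as percent. Grey bars use RPKM as deposited and yellow bars RPKM times the number of transcript entries. Bars are means over the 6 livers and lines span the lowest to the highest liver. Ces1c is first on both scales, at 66.0% and 56.3%, while Ces1d and Ces1f gain and Ces1g loses.

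Genes that work beside the carboxylesterases were read from the same fit, and none of them passed the threshold. Of 20 other hepatic ester hydrolases tested, 12 had a fold change above 0 and 8 below 0 (median log2 fold change 0.07), and without overlap of the groups 2 were higher, against 5.83% of all genes tested, and 0 lower, against 5.71%. Aadac, an endoplasmic reticulum deacetylase that also supplies lipid for lipoprotein assembly, had 119, 129 and 120 RPKM in iAsF1-F livers, against 96.4, 102 and 106 RPKM in conF1-F livers. Its groups did not overlap. The log2 fold change was 0.27 (SE 0.06), and limma gave an adjusted p = 0.692. Lypla1, a lysophospholipase and depalmitoylating enzyme, was at 11.1, 9.56 and 9.39 RPKM in iAsF1-F livers, against 8.24, 8.98 and 8.62 RPKM in conF1-F livers, also without overlap (log2 fold change 0.19, SE 0.10, adjusted p = 0.877 by limma).

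Of 12 genes of lipoprotein assembly and triglyceride mobilisation, which also hold Aadac, 8 were above 0 and 4 below 0 (median 0.08). For Cideb, a lipid droplet protein needed for lipidation of lipoproteins, the log2 fold change was 0.10 (SE 0.07, adjusted p = 0.877 by limma). Of 5 genes of retention in the endoplasmic reticulum, 2 were above 0 and 3 below 0 (median −0.02). The chaperone genes Hspa5 and Calr were at −0.32 (SE 0.30) and −0.13 (SE 0.13), both with an adjusted p = 0.877 by limma.

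Of 14 regulators described for carboxylesterase genes, 9 were above 0 and 5 below 0 (median 0.06). Without overlap of the groups, 2 of the 14 were higher, against 5.83% of all genes tested, and 0 lower, against 5.71%. Cebpa, a transcription factor of mature hepatocytes, had 137, 137 and 133 RPKM in iAsF1-F livers, against 127, 120 and 125 RPKM in conF1-F livers. All iAsF1-F livers were above all conF1-F livers, and the log2 fold change was 0.13 (SE 0.05, adjusted p = 0.877 by limma). Srebf1, a transcription factor of lipid synthesis, was at 0.29 (SE 0.17, adjusted p = 0.877 by limma). Of 19 targets of Nr1i3 and Nr1i2, the receptors through which drugs induce esterases and P450 enzymes, 10 were above 0 and 9 below 0 (median 0.02). Cyp2b13 and Cyp2c29, both P450 enzymes, lay in opposite directions at −0.53 (SE 0.25) and 0.25 (SE 0.11), each with an adjusted p = 0.877 by limma.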

How the data were processed

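Liver RNA of 3 iAsF1-F and 3 conF1-F mice was sequenced on libraries made from total RNA. The authors deposited their values as RPKM, scaled to transcript length and mapped reads before deposit. Tools named in the submitters' processing notes are HTSeq, DESeq2 1.8.2 and STAR 2.5.3a, with the build mm10, and the program behind the RPKM is not given in the sources used here. All 105744 cells agreed between the single-liver tables and the joint table, and 13 cells shown as dates were converted back. The 6448 genes that averaged 1 RPKM or more were fitted on the log2(RPKM + 1) scale with limma 3.58.1 (R 4.3.3), taking group as the only term, a variance trend, and Benjamini-Hochberg adjustment at 0.05. Single genes also had two-sided exact permutation tests. The code was tested on simulated data. Nothing says which mice shared a litter, so p-values measure the spread between these livers.

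The 10 genes and the gene lists were chosen with earlier results of these data known. All 10 genes are named, with up to 2 of smallest p from each list of related genes and any other carboxylesterase analysed. Alternatives were a pseudocount of 0.1, no filter, a robust fit, 2 rescalings, only genes never listed at 0, a replicate block, each liver left out, and, chosen after seeing the data, RPKM times the number of entries. Counting errors cover counting only. Coding sequences were read from GENCODE for GRCm38 with Biopython 1.88, and plots were drawn with matplotlib 3.10.9 in Python 3.11.15.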

Additional observations from a re-analysis of the deposited data

How the results depend on the processing

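No carboxylesterase passed the threshold under any of the 14 alternatives (adjusted p 0.819 to 1.00), and Ces1c, Ces1e, Ces2a and Ces2e kept a fold change above 0 in all of them. The unfiltered and robust fits, the replicate block and the restriction to genes never listed at 0 leave these fold changes as they were. Multiplying by the number of entries can move them only through the pseudocount. Those alternatives therefore could hardly turn a sign. Signs turned only when 1 liver was left out, and the cause was not tested. When each liver was left out, the log2 fold changes of the 6 genes concerned lay between −0.018 (without conF1-F replicate 3) and 0.099 for Ces1d, between −0.63 and 0.086 (without iAsF1-F replicate 3) for Ces1f, and between −0.057 (without iAsF1-F replicate 1) and 0.061 for Ces1g, which was also at −0.025 without conF1-F replicate 3. They lay between −0.74 and 0.030 (without iAsF1-F replicate 3) for Ces2c, and between −0.13 and 0.028 (without iAsF1-F replicate 1) for Ces3a, also at 0.017 without conF1-F replicate 3. For Ces3b they lay between −0.16 (without iAsF1-F replicate 3) and 0.26, with −0.14 without conF1-F replicate 2. The other 4 lay between 0.039 and 0.094 for Ces1c, 0.056 and 0.29 for Ces1e, 0.12 and 0.23 for Ces2a, and 0.29 and 0.84 for Ces2e. At an unadjusted p under 0.05, 1 gene passed without conF1-F replicate 1 (Ces2a) and 1 without conF1-F replicate 3 (Ces2e).

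The members without overlap and higher in iAsF1-F numbered 2 of 10 after rescaling to the median ratio, against 6.02% of all genes tested. When each liver was left out they were 1 to 3 higher and 0 to 1 lower, while 9.38% to 10.996% of all genes tested were higher without overlap and 9.06% to 12.4% lower. Over all genes, 16 were called (8 higher, 8 lower). When each liver was left out the counts were 28 to 40, with 15 to 21 higher and 8 to 21 lower. Of all genes tested, 19.6% were listed at 0 in 1 to 5 livers, and none of the 10 carboxylesterases was. Among the 5187 genes never listed at 0 the genes called were 5, with 3 higher and 2 lower. With the replicate block they were 0, with 0 higher and 0 lower (at an unadjusted p under 0.05, 148 higher and 133 lower), and no carboxylesterase passed. Over all genes tested, the deviations of livers of the same number were hardly correlated (−0.07, 0.02 and 0.01). Whether livers of the same number shared a litter or a batch cannot be told from this. Ces2c rests on few reads, and its log2 fold change was −0.71 with a pseudocount of 0.1 RPKM.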
